A study of Mus musculus with 20 samples.

Results

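The 10 genes described here are imprinted genes that act on embryonic growth: H19, Igf2, Igf2r, Meg3, Rian, Peg3, Cdkn1c, Phlda2, Grb10 and Mest. They were chosen by symbol from the study's gene tables. Of the 10, the single-cell tables held 9 among 27998 genes, and all 10 were found among the 54146 rows of the bulk table; Rian was measured in the bulk libraries only. All samples were male 129P2/OlaHsd mouse embryonic stem cells, a pluripotent cell line. These cells were kept in LIF with GSK3 inhibitor XV and the MEK inhibitor UO126, and both inhibitors were withdrawn before differentiation. Signals were then combined for 24 h, and each population was marked with transfected RNA tags called barcodelets before the cells were pooled for droplet sequencing.

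Each signal was either activated (plus) or blocked (minus). The germ layer experiment set retinoic acid against CD 2665 (RA), GSK3 inhibitor XV against IWR1 (Wnt), Activin A against A8301 (Tgfb), Bmp4 against Dorsomorphin (Bmp) and Fgf2 against UO126 (Fgf), giving 32 conditions that began from undirected cells. The mesendoderm experiment added Notch and Shh, and its wells began after 24 h of mesendoderm induction, in which Fgf2, Activin A and GSK3 inhibitor XV were given together with Dorsomorphin, a Bmp inhibitor, and CD 2665, a retinoic acid receptor antagonist. In the mixed experiment the 5 signals were combined on cells of either start, mesendoderm-induced or undirected, beside 8 control wells per start that had no combinatorial treatment. The tables used here name no compounds for plus and minus in the mesendoderm and mixed experiments. The bulk libraries, made with a 3′ end kit, came from cells at 24 h and at 72 h after barcodelet transfection and from untransfected cells (2 each), and from flow-sorted Foxa2GFPplus cells (replicates 1, 3 and 4; replicate 2 was not analysed here), Tdgf1GFPplus cells (2) and Foxa2GFPminus cells (2). No source used here gives the culture of the sorted cells before the sort.

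Imprinted genes are expressed mainly from the copy inherited from one parent, under the control of DNA methylation marks laid down in the germ line. Many of them set the supply of nutrients or the rate of growth of the embryo and placenta. Igf2 encodes a growth factor expressed mainly from the paternal copy, and Igf2r encodes the receptor that clears it. H19 is a long noncoding RNA that shares enhancers with Igf2 and is expressed from the maternal copy. Cdkn1c (an inhibitor of cyclin-dependent kinases), Phlda2 (a brake on placental growth) and Grb10 (an adaptor that dampens insulin and insulin-like growth factor signalling) restrain growth from the maternal copy. Meg3 and Rian are noncoding RNAs of the maternal copy of the Dlk1 domain. Peg3, a zinc finger protein, and Mest, a protein of the alpha/beta hydrolase fold, are expressed from the paternal copy. The deposited counts do not separate the parental copies, so each value is the sum of both.

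After the deposited pass filter, the germ layer experiment held 4350 of 8421 cells in 32 conditions of 70 to 230 cells each, with a median of 15314 unique molecular identifiers (UMIs) per cell. In the mesendoderm experiment 2899 of 12781 cells passed, with a median of 11700 UMIs per cell, and the 300 wells with at least 5 passing cells (5 to 29) were analysed, of 383 wells with any. In the mixed experiment 4869 of 5944 cells passed, with a median of 19105 UMIs, and 142 of 144 wells had at least 5 of them. UMIs were summed per condition or well, and levels are given as CPM, UMI counts scaled to library totals adjusted by edgeR's trimmed mean of M values. Over all genes, the totals ran from 991630 to 3816595 UMIs per condition in the germ layer experiment. They ran from 27701 to 332644 per well in the mesendoderm experiment and from 101140 to 2119355 per well in the mixed experiment. The mesendoderm wells were thus the least precise. Changes were called by edgeR's quasi-likelihood test at a Benjamini-Hochberg adjusted p under 0.05 over all genes tested. Conditions and wells served as replicates within 1 experiment each, and in the germ layer experiment each combination was 1 population, so the p-values measure only the spread between populations of that experiment. Between 64 and 151 cell barcodes were shared by any pair of experiments.

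The coordinates are those of GENCODE vM21 on GRCm38. Igf2 (chr7:142650766-142666816) and H19 (chr7:142575529-142578143) lay 72.62 kb apart, Cdkn1c (chr7:143458339-143461050) and Phlda2 (chr7:143501545-143503150) 40.49 kb apart, and Meg3 (chr12:109541001-109571726) and Rian (chr12:109603940-109661716) 32.21 kb apart. Peg3 lay at chr7:6703892-6730431, Grb10 at chr11:11930508-12038683, Mest at chr6:30723547-30748465 and Igf2r at chr17:12682406-12769664. Antisense transcripts overlapped Igf2 (Igf2os), Igf2r (Airn), Cdkn1c (Gm44732) and Mest (Gm44296), and Copg2 overlapped Mest on the other strand. The protein-coding gene Gm49394 overlapped Igf2 on the same strand, and Mir675 lay within H19. No source used here says whether counting used strand, so reads of such overlapping genes may not be told apart.

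No promoter of H19 or Cdkn1c was found in the RefSeq annotation of GRCm38.p6 used here, so none of theirs was searched. Promoters of the other 8 members were found, 15 promoters in all. The 250 bases before the start of transcription are shown for 4 of them, chosen because they hold letters of sites for nuclear receptors or Smads. In the first pair, the capitals mark the letters AGGTCA, or their reverse complement, which form the core of sites bound by nuclear receptors such as those for retinoic acid.
Igf2, first promoter, minus strand, chr7:142666817-142667066: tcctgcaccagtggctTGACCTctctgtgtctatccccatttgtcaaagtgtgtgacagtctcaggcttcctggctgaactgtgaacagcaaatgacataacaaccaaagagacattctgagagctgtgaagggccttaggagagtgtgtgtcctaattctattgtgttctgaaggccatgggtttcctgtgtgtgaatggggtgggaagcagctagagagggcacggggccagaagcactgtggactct
Igf2r, minus strand, chr17:12769707-12769956: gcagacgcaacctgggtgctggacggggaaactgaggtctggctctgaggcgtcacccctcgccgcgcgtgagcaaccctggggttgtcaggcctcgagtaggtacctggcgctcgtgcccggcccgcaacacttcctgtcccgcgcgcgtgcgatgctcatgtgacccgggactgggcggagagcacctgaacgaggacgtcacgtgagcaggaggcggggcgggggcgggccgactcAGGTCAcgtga
In the next pair, the capitals mark the letters GGCGCC, which are the same on both strands and occur in sites bound by the Smads that carry the Bmp signal.
Peg3, minus strand, chr7:6730420-6730669: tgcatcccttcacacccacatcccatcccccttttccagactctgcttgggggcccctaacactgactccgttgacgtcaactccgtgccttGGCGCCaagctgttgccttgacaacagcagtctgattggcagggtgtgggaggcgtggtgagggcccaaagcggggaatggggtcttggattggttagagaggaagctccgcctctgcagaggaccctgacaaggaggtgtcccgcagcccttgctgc
Phlda2, minus strand, chr7:143502525-143502774: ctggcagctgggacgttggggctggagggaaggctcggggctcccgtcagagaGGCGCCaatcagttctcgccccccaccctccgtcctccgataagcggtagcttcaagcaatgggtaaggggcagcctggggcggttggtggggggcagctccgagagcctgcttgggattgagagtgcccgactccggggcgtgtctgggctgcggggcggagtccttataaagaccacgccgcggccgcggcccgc

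Both strands of each promoter were searched from 250 bases before to 50 after the start, with no overlaps between the motifs removed. AGGTCA was found in the first of 4 Igf2 promoters, in Igf2r and in the second of 2 Meg3 promoters, and 16.3% of all 32851 promoters of this length held it. GGCGCC was found in Peg3, in Phlda2 and in 2 of 3 Mest promoters, against 11.9% of all promoters. The 2 Mest promoters (chr6:30737800-30738099 and chr6:30737803-30738102) overlap and hold the same site. The promoters that held GGCGCC were 61.3% to 65.7% G and C, against a median of 52.7% over all promoters. GGCGCC is made of these letters only. None of the 15 promoters searched held CTTTGAT, the letters bound by Tcf and Lef proteins at the end of the Wnt pathway. None held TGANTCA, the letters bound by AP-1. Of all promoters 3.73% and 7.81% held them. H19 and Cdkn1c were not among the members searched. The letters CACCC were in 57.5% of all promoters and GATTA in 22.0%, which leaves little to read from their presence in members. These matches describe letters in a window and no binding.

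In 3 of the 4 settings Bmp moved more of these genes in one direction than any other signal did. In the germ layer experiment 7 of 9 members were higher in Bmp plus than in Bmp minus conditions and none was lower, where 43.1% of 10614 genes changed in either direction and 21.6% were higher. The median log2 change was 0.70 over the members and 0.0037 over all genes. In the mesendoderm experiment 7 of the 8 members tested were higher with Bmp (29.3% of 2328 genes changed, 13.4% were higher), with medians of 0.74 for the members and -0.0086 for all genes; Igf2r did not pass the filter on low counts there. From the mesendoderm start of the mixed experiment 7 of 9 were higher (10.7% of 8791 genes changed, 5.36% were higher; medians 0.61 and 9.8e-05). From the undirected start 3 were higher and 1 was lower (7.81% of genes changed; medians 0.43 and 0.0048). The plot of fitted changes by signal shows these values for every member.

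**Figure D1:**
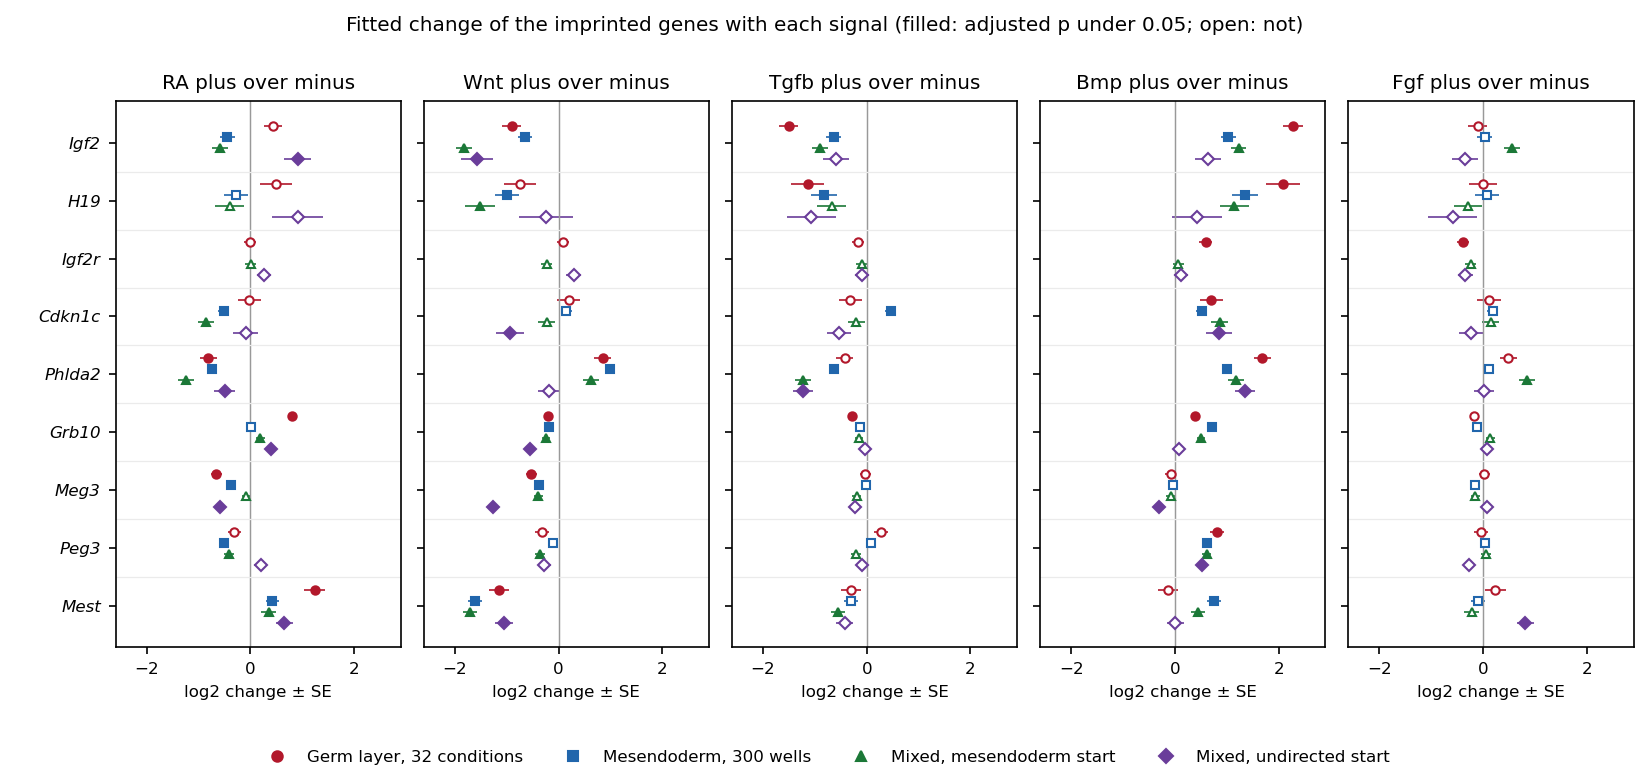
Fitted log2 change of 9 members (rows) with each of 5 signals (panels), plus over minus, with bars of 1 SE and filled symbols where the edgeR adjusted p was under 0.05. The Bmp panel has 7 filled symbols to the right of 0 in each of the germ layer, mesendoderm and mesendoderm-start settings, and the Wnt panel has filled symbols to the left of 0 for Igf2, Meg3, Grb10 and Mest in all 4 settings.

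RA and Wnt moved members in both directions, and Tgfb and Fgf moved fewer of them. RA changed 4 of 9 members in the germ layer experiment, 2 higher and 2 lower (27.7% of genes changed), 6 of 8 in the mesendoderm experiment, 1 higher and 5 lower (21.9%), 6 of 9 from the mesendoderm start, 2 higher and 4 lower (30.0%), and 5 of 9 from the undirected start, 3 higher and 2 lower (34.3%). Wnt changed 5 of 9 members in the germ layer experiment, 1 higher and 4 lower (23.9%), 6 of 8 in the mesendoderm experiment, 1 higher and 5 lower (39.6%), 7 of 9 from the mesendoderm start, 1 higher and 6 lower (41.1%), and 5 of 9, all lower, from the undirected start (36.1%). Tgfb lowered 3 of 9 members in the germ layer experiment (7.02% of genes changed), lowered 3 and raised 1 of 8 in the mesendoderm experiment (10.1%), and lowered 3 from the mesendoderm start (6.96%) and 1 from the undirected start (4.14%). Fgf lowered 1 member in the germ layer experiment (7.93%), raised 2 from the mesendoderm start (13.6%) and raised 1 from the undirected start (13.3%). In the mesendoderm experiment edgeR called no member with Fgf (9.28% of genes), Notch (1.16%) or Shh (0.0430%), and DESeq2 called none either; at an unadjusted p under 0.05 the counts were 1, 0 and 1.

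Over the 4 settings, 40 combinations of a member and a signal were measured in all of them, and 9 were called in the same direction each time. These were higher Peg3, Cdkn1c and Phlda2 with Bmp, lower Igf2, Meg3, Grb10 and Mest with Wnt, lower Phlda2 with RA and higher Mest with RA. The mesendoderm call of Grb10 with Wnt (-0.18) was lost with no filter on low counts (edgeR adjusted p = 0.13) and with at least 10 cells per well (0.37). Igf2 with RA was the 1 combination called in both directions. For neither count, the 9 or the 1, is the share of all genes given here. They are therefore not read as results about the members.

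Signals were also tested in pairs, where a signal named alone was plus while the other of its pair was minus (blocked). An interaction is given as the log2 change with one signal where the other is plus, minus that where the other is minus, fitted with all pairs in the model. Of these, 13 of 90 member values were called in the germ layer experiment, where 1.42% of the values of all genes were, 6 of 168 in the mesendoderm experiment (0.822%) and 9 of 180 in the mixed experiment (0.506%). With 1 pair in the model at a time, 3 values were called in the germ layer experiment, namely Phlda2 and Peg3 for RA with Wnt and Mest for RA with Bmp. In the mixed experiment 4 were called then: H19 and Cdkn1c for Wnt with Tgfb and Mest for Wnt with Bmp from the mesendoderm start, and Grb10 for RA with Wnt from the undirected start. In the mesendoderm experiment Meg3 for RA with Wnt and Cdkn1c for Wnt with Bmp were not called then. None of the called interactions changed sign then. For these fits with 1 pair the share of all genes called is not given here, so their counts are not read as results about the members.

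Igf2 was the member with the largest fitted Bmp change in the germ layer experiment. It ranged from 11.7 to 157 CPM in the 16 Bmp plus conditions (median 44.0), against 4.29 to 22.3 CPM in the 16 Bmp minus conditions (median 10.5). The mean was 58.5 ± 47.4 CPM with Bmp and 11.2 ± 5.00 CPM without it (SD, n = 16 each), a log2 change of 2.28 ± 0.19 (SE; edgeR adjusted p = 1.4e-11). The groups overlapped at the low end of the Bmp plus conditions, and the 4 Bmp plus conditions inside the Bmp minus range were all Tgfb plus. Igf2 also rose with Bmp in the mesendoderm wells, with a mean of 98.6 ± 92.8 CPM in 157 Bmp plus wells and 46.3 ± 50.1 CPM in 143 Bmp minus wells (log2 change 1.03 ± 0.14). From the mesendoderm start it averaged 70.8 ± 82.0 CPM with Bmp and 27.3 ± 21.3 CPM without (n = 32 each; log2 change 1.23 ± 0.15). From the undirected start the change was 0.65 ± 0.25 on the log2 scale and was not called (edgeR adjusted p = 0.099).

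H19 moved with Bmp in the same 3 settings. It ranged from 3.68 to 107 CPM with Bmp (median 23.4) in the germ layer conditions, against 0.597 to 23.4 CPM without (median 5.15), and the log2 change was 2.09 ± 0.33 (edgeR adjusted p = 3.4e-06). The groups overlapped, and 8 of the 16 Bmp plus conditions lay above every Bmp minus condition. The lowest of all conditions, RA plus, Wnt plus and the rest minus, held 1 H19 UMI. H19 averaged 59.3 ± 112 CPM in Bmp plus and 22.1 ± 65.0 CPM in Bmp minus mesendoderm wells (log2 change 1.35 ± 0.24), a change not called when wells under 10 cells were left out (adjusted p = 0.059). In mesendoderm-started wells it averaged 43.9 ± 56.9 CPM with Bmp and 17.8 ± 21.0 CPM without (log2 change 1.15 ± 0.28).

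**Figure D2:**
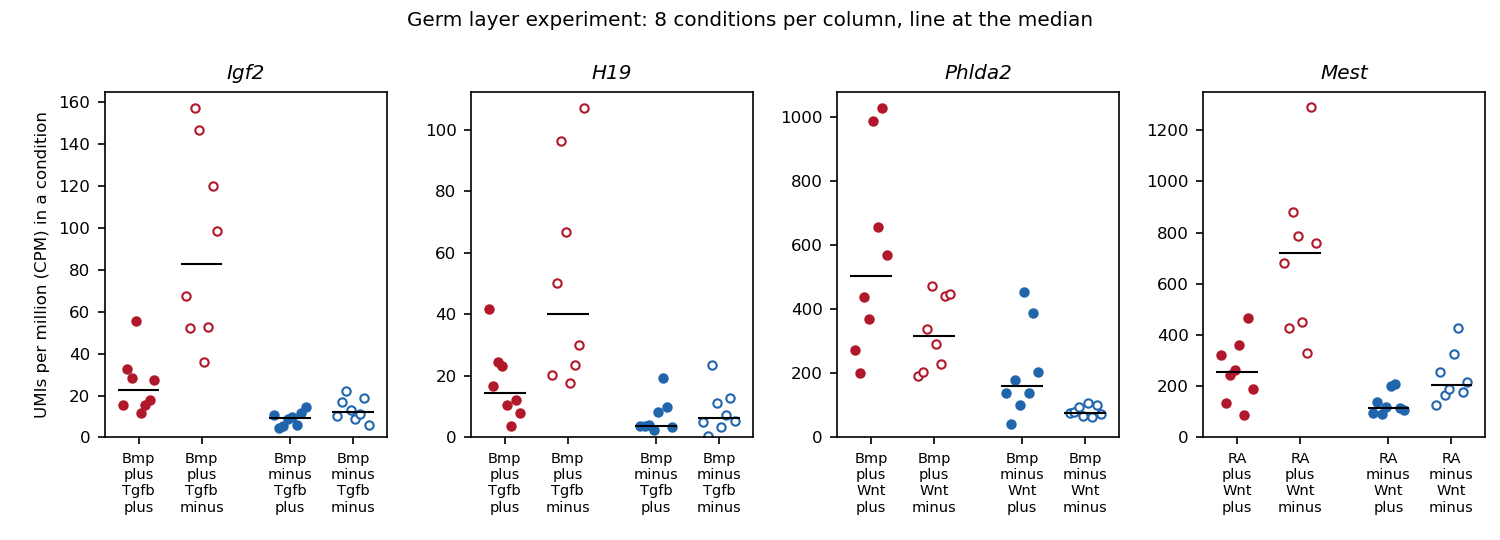
CPM of Igf2, H19, Phlda2 and Mest in the 32 germ layer conditions (points; vertical axis from 0), split by Bmp and Tgfb, by Bmp and Wnt, or by RA and Wnt, with a line at the median of each 8 conditions. Igf2 exceeded 35 CPM in all 8 Bmp plus, Tgfb minus conditions and in 1 other condition.

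Tgfb lowered Igf2, and most of that difference stood in the Bmp plus conditions. Igf2 averaged 25.6 ± 14.2 CPM where Tgfb and Bmp were both plus, 91.3 ± 46.3 CPM with Bmp alone, 8.90 ± 3.44 CPM with Tgfb alone and 13.4 ± 5.50 CPM where both were minus (SD, n = 8 conditions each). The Bmp effect differed by -1.24 ± 0.28 on the log2 scale between Tgfb plus and Tgfb minus conditions (edgeR adjusted p = 0.0092 with all 10 pairs in the model). With 1 pair in the model at a time the value was -1.15 and was not called (adjusted p = 0.14). In the additive model Tgfb lowered Igf2 by 1.5 ± 0.18 on the log2 scale in the germ layer experiment, and Igf2 was also lower with Tgfb in the mesendoderm wells (-0.63 ± 0.15) and from the mesendoderm start (-0.90 ± 0.15). H19 was lower with Tgfb in the germ layer experiment (-1.14 ± 0.31) and the mesendoderm wells (-0.83 ± 0.25); the germ layer call was lost with DESeq2 (-0.82, adjusted p = 0.24).

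Wnt lowered Igf2 in all 4 settings. The mean was 22.6 ± 19.5 CPM in Wnt plus and 47.0 ± 52.6 CPM in Wnt minus germ layer conditions (log2 change -0.90 ± 0.18). From the mesendoderm start the wells ran from 7.0 to 48.3 CPM with Wnt (median 16.7), against 3.81 to 381 CPM without (median 54.6), a log2 change of -1.83 ± 0.15. From the undirected start they ran from 0 to 29.3 CPM with Wnt (median 5.04), against 2.22 to 82.1 CPM without (median 20.8), a log2 change of -1.56 ± 0.31. The highest Wnt plus wells of each start lay below the highest Wnt minus wells, and the groups overlapped below that. H19 was lower with Wnt in the mesendoderm wells (-1.0 ± 0.23; with at least 10 cells per well -0.81 and adjusted p = 0.084) and from the mesendoderm start (-1.52 ± 0.29), where it averaged 15.9 ± 27.7 CPM with Wnt and 45.8 ± 53.0 CPM without.

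In the mesendoderm wells the Bmp change of Igf2 stood mainly where Wnt was minus. Igf2 averaged 59.0 ± 56.3 CPM with Wnt and Bmp both plus (80 wells), 140 ± 105 CPM with Bmp alone (77 wells), 56.4 ± 63.1 CPM with Wnt alone (68 wells) and 37.2 ± 32.1 CPM with neither (75 wells). The Bmp effect differed by -1.56 ± 0.28 on the log2 scale between Wnt plus and Wnt minus wells (edgeR adjusted p = 4.0e-06). It was also smaller with RA, with an interaction of -1.09 ± 0.27: Igf2 averaged 68.5 CPM with RA and Bmp, 49.8 CPM with RA alone, 123 CPM with Bmp alone and 42.3 CPM with neither. The Wnt and Tgfb effects on Igf2 were less than additive there (interaction 1.14 ± 0.27), since Igf2 averaged 57.9 CPM with both, 57.7 CPM with Wnt alone, 50.8 CPM with Tgfb alone and 112 CPM with neither.

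RA moved Igf2 in opposite directions from the 2 starts. From the undirected start Igf2 averaged 21.7 ± 19.1 CPM with RA (n = 30) and 11.9 ± 13.7 CPM without (n = 32), a log2 change of 0.91 ± 0.26. In mesendoderm-started wells it averaged 36.9 ± 35.0 CPM with RA and 61.2 ± 81.4 CPM without (n = 32 each), a log2 change of -0.59 ± 0.15. The difference between these effects was itself called (-1.5 ± 0.30 on the log2 scale, edgeR adjusted p = 0.00020). In the mesendoderm wells RA lowered Igf2 by 0.44 ± 0.14 on the log2 scale, a call lost with DESeq2 and with wells of at least 10 cells, and in the germ layer conditions, which also began undirected, the change was 0.44 ± 0.18 and was not called (adjusted p = 0.064).

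**Figure D3:**
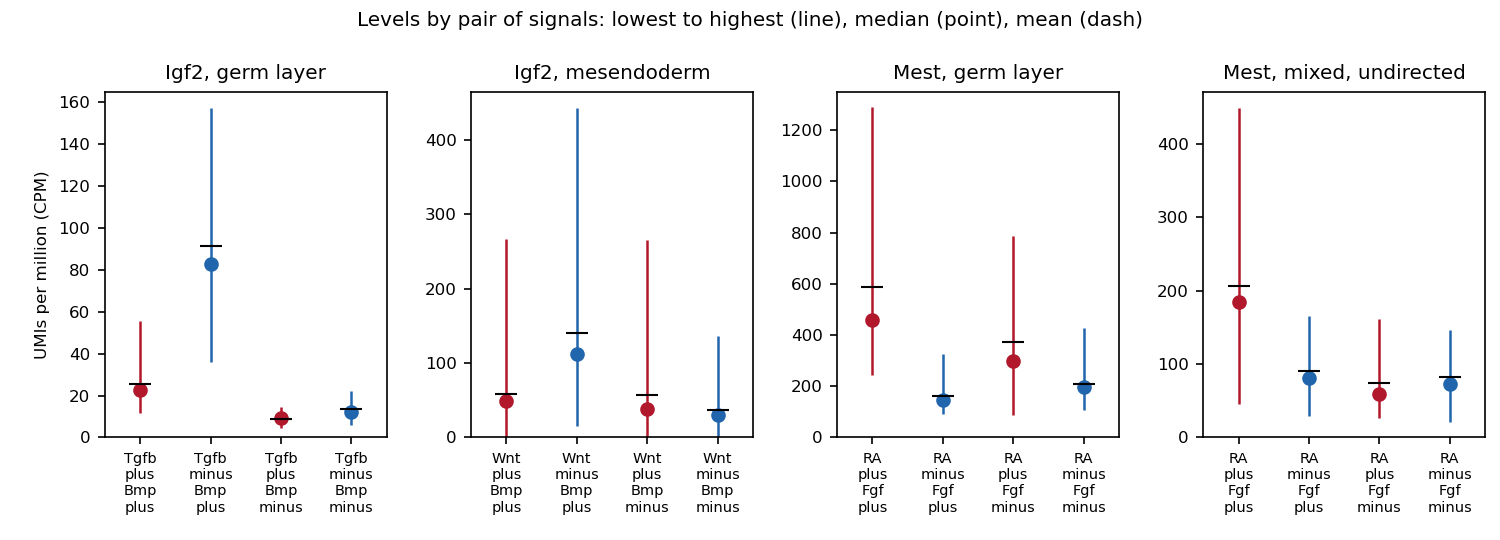
CPM of Igf2 by Tgfb and Bmp (germ layer) and by Wnt and Bmp (mesendoderm), and of Mest by RA and Fgf (germ layer, and mixed from the undirected start): the line runs from the lowest to the highest condition or well, the point is the median and the dash the mean. Igf2 is highest with Bmp plus and the other signal minus (means 91.3 and 140 CPM), and Mest with RA and Fgf both plus (means 587 and 206 CPM).

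Igf2r, the receptor that carries Igf2 to lysosomes, moved far less. It averaged 30.0 ± 10.0 CPM in Bmp plus and 19.7 ± 5.07 CPM in Bmp minus germ layer conditions (log2 change 0.60 ± 0.12, edgeR adjusted p = 0.00015), with ranges of 17.4 to 53.6 and 13.9 to 32.1 CPM that overlapped. The Bmp change was larger with RA than without it (interaction 0.60 ± 0.17, edgeR adjusted p = 0.037; with no filter on low counts 0.057, and with 1 pair at a time 0.24): Igf2r averaged 32.6 ± 10.1 CPM with RA and Bmp, 17.1 ± 2.69 CPM with RA alone, 27.4 ± 9.86 CPM with Bmp alone and 22.3 ± 5.72 CPM with neither. Fgf lowered Igf2r in the germ layer experiment, to 21.3 ± 3.95 CPM against 28.4 ± 11.9 CPM without it (log2 change -0.38 ± 0.12, edgeR adjusted p = 0.043), and that call was lost with DESeq2, with no filter on low counts and with the median UMIs per cell as a covariate. In the mixed experiment edgeR called no change of Igf2r with any signal from either start.

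The genes that restrain growth from the maternal copy were led by Phlda2. Its germ layer levels ranged from 191 to 1031 CPM with Bmp (median 405), against 40.8 to 454 CPM without (median 103), a log2 change of 1.68 ± 0.16 (edgeR adjusted p = 4.7e-10). Phlda2 rose with Bmp in the other settings too, by 1.01 ± 0.09 in the mesendoderm wells (means 1142 and 542 CPM), 1.17 ± 0.15 from the mesendoderm start (413 and 172 CPM) and 1.35 ± 0.20 from the undirected start (212 and 73.7 CPM). RA lowered it in all 4 settings: it averaged 204 ± 137 CPM with RA and 387 ± 304 CPM without in the germ layer conditions (log2 change -0.81), and the fitted changes elsewhere were -0.74, -1.25 and -0.50. The change from the undirected start was not called with DESeq2 (-0.37, adjusted p = 0.11).

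The Wnt difference in Phlda2 stood mainly where RA was minus. Phlda2 averaged 218 ± 135 CPM with RA and Wnt, 190 ± 148 CPM with RA alone, 554 ± 329 CPM with Wnt alone and 221 ± 160 CPM with neither (n = 8 germ layer conditions each), an interaction of -1.11 ± 0.13 (edgeR adjusted p = 6.9e-06). The highest condition, 1031 CPM, was RA minus, Wnt plus, Tgfb minus, Bmp plus and Fgf plus, and the lowest, 40.8 CPM, was RA plus, Wnt plus, Tgfb plus, Bmp minus and Fgf minus. The additive Wnt change was 0.85 ± 0.16 there, 1.0 ± 0.09 in the mesendoderm wells and 0.62 ± 0.15 from the mesendoderm start, and it was -0.19 and not called from the undirected start; the difference between the starts was called (0.81 ± 0.25), though not with DESeq2 (0.71, adjusted p = 0.057). Tgfb lowered Phlda2 by 1.22 ± 0.15 and 1.23 ± 0.20 on the log2 scale from the mesendoderm and the undirected start, and Fgf raised it by 0.85 ± 0.15 from the mesendoderm start (means 385 and 200 CPM).

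Cdkn1c, which lies beside Phlda2, rose with Bmp in all 4 settings but by less. In the germ layer conditions it ranged from 41.2 to 197 CPM with Bmp (median 117), against 20.0 to 124 CPM without (median 61.5), and the log2 change was 0.70 ± 0.22 (edgeR adjusted p = 0.011). The changes were 0.52 ± 0.11 in the mesendoderm wells (with at least 10 cells per well 0.44 and adjusted p = 0.099), 0.86 ± 0.16 from the mesendoderm start and 0.85 ± 0.24 from the undirected start. Where Fgf was minus (UO126) the germ layer change was larger: Cdkn1c averaged 100 ± 50.7 CPM with Bmp and Fgf, 134 ± 52.7 CPM with Bmp alone, 88.1 ± 27.2 CPM with Fgf alone and 46.3 ± 26.4 CPM with neither (interaction -1.42 ± 0.23, edgeR adjusted p = 0.0024; with 1 pair in the model at a time -1.21 and adjusted p = 0.67). In the mesendoderm wells Tgfb raised Cdkn1c (0.47 ± 0.11), the 1 case in which a member rose with Tgfb by a called amount. The means were 240 ± 196 CPM in 108 Tgfb plus wells and 180 ± 138 CPM in 192 Tgfb minus wells. This rise stood where Bmp was minus, and the pair was called as an interaction. Cdkn1c averaged 243 ± 176 CPM with Tgfb and Bmp and 237 ± 217 CPM with Tgfb alone. It averaged 234 ± 144 CPM with Bmp alone and 121 ± 104 CPM with neither, so the Bmp difference there stood where Tgfb was minus.

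RA lowered Cdkn1c after mesendoderm induction. The mean was 164 ± 160 CPM with RA and 237 ± 160 CPM without in the mesendoderm experiment (log2 change -0.51 ± 0.11), and 71.2 ± 35.0 CPM with RA and 135 ± 131 CPM without from the mesendoderm start of the mixed experiment (-0.85 ± 0.16). From the undirected start Wnt lowered it, to 31.6 ± 24.3 CPM against 63.1 ± 45.4 CPM without Wnt (-0.93 ± 0.26). From the mesendoderm start the Tgfb effect differed between Wnt plus and Wnt minus wells by 1.55 ± 0.25 on the log2 scale: Cdkn1c averaged 109 CPM with both, 75.5 CPM with Wnt alone, 72.2 CPM with Tgfb alone and 156 ± 171 CPM with neither, where 1 well reached 752 CPM. H19 had an interaction of the same sign in those wells (2.4 ± 0.56). Its means were 21.6 ± 37.2, 10.2 ± 11.2, 25.7 ± 22.7 and 65.9 ± 66.5 CPM in the same order (SD, n = 16 wells each). The medians were 5.52, 5.44, 24.8 and 44.2 CPM, and each group had a well at 0. H19 was detected in 433 of 4869 mixed cells with up to 125 UMIs in 1, so single cells can weigh on these means.

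Grb10 was the member that RA raised with the smallest adjusted p in the germ layer experiment. It ranged from 116 to 204 CPM with RA (median 168), against 63.6 to 192 CPM without (median 87.5), a log2 change of 0.79 ± 0.07 (edgeR adjusted p = 2.4e-10). Of the 16 RA minus conditions, 12 lay below the lowest RA plus condition. Where RA was minus, Grb10 also differed with Bmp: it averaged 177 ± 22.7 CPM with RA and Bmp, 154 ± 28.7 CPM with RA alone, 120 ± 34.5 CPM with Bmp alone and 75.0 ± 9.45 CPM with neither (interaction -0.44 ± 0.09; with 1 pair at a time adjusted p = 0.056). RA raised Grb10 from the undirected start (0.41 ± 0.10) and, by 0.19 ± 0.08, from the mesendoderm start. The second of these was not called with the median UMIs per cell as a covariate. From the undirected start the RA difference stood where Wnt was minus. Grb10 averaged 58.2 ± 20.0 CPM with RA and Wnt and 107 ± 26.3 CPM with RA alone. It averaged 59.5 ± 18.5 CPM with Wnt alone and 68.2 ± 19.9 CPM with neither. In the mesendoderm wells RA left no called change, while Bmp raised Grb10 to 138 ± 57.7 CPM against 85.4 ± 47.7 CPM without it (log2 change 0.72 ± 0.08).

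Meg3, the noncoding RNA that is maternally expressed from the Dlk1 domain, was lowered by RA and Wnt. Over the germ layer conditions it ranged from 201 to 749 CPM with RA (median 373), against 386 to 925 CPM without (median 600), a log2 change of -0.66 ± 0.11 (edgeR adjusted p = 1.4e-05). Wnt changed it by -0.53 (means 434 and 608 CPM). The lowest levels were those with both signals: Meg3 averaged 298 ± 61.1 CPM with RA and Wnt, 525 ± 117 CPM with RA alone, 569 ± 133 CPM with Wnt alone and 690 ± 129 CPM with neither (interaction -0.52 ± 0.11; with 1 pair at a time adjusted p = 0.17). The 8 conditions with both signals, 201 to 372 CPM, lay below all 8 of the conditions with RA alone. In the mesendoderm wells the interaction had the opposite sign (0.53 ± 0.13), with means of 334, 372, 378 and 549 CPM in that order. RA lowered Meg3 there by 0.37 ± 0.07 on the log2 scale, a change not called with at least 10 cells per well (-0.26, adjusted p = 0.082).

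From the undirected start Wnt lowered Meg3 by 1.26 ± 0.10 on the log2 scale. The wells ran from 58.5 to 552 CPM with Wnt (median 240), against 233 to 1204 CPM without (median 549), and overlapped in the middle. From the mesendoderm start the Wnt change was -0.39 ± 0.09 (means 278 and 370 CPM), and the difference between the starts was called (0.87 ± 0.13, edgeR adjusted p = 3.9e-07). RA lowered Meg3 from the undirected start (-0.59 ± 0.10) and not by a called amount from the mesendoderm start, and this difference was called as well (0.52 ± 0.13). Bmp had no called effect on Meg3 in 3 settings (-0.08 in the germ layer conditions) and a change of -0.30 ± 0.10 from the undirected start that was not called with DESeq2.

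Peg3, the paternally expressed zinc finger gene, followed Bmp in all 4 settings. It ranged from 171 to 435 CPM with Bmp (median 326), against 86.0 to 319 CPM without (median 154), in the germ layer conditions, a log2 change of 0.82 ± 0.13 (edgeR adjusted p = 5.5e-06). The mesendoderm wells averaged 528 ± 205 CPM with Bmp and 334 ± 128 CPM without (log2 change 0.62 ± 0.06), and the changes were 0.61 ± 0.09 and 0.52 ± 0.12 from the mesendoderm and the undirected start. RA lowered Peg3 after mesendoderm induction, to 350 ± 159 CPM against 516 ± 198 CPM without RA in the mesendoderm experiment (-0.51 ± 0.06) and to 238 ± 113 CPM against 318 ± 109 CPM in the mixed experiment (-0.41 ± 0.09). No RA change was called from the undirected start, and the difference between the starts was called (-0.61 ± 0.15). Over the germ layer conditions Peg3 averaged 160 ± 62.0 CPM with RA and Wnt, 276 ± 99.7 CPM with RA alone, 266 ± 76.6 CPM with Wnt alone and 257 ± 129 CPM with neither (interaction -0.87 ± 0.17).

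Grb10 was lower with Wnt in all 4 settings and higher with RA by a called amount in 3. Mest was higher with RA and lower with Wnt in all 4. In the germ layer conditions it ranged from 88.8 to 1290 CPM with RA (median 394), against 91.4 to 427 CPM without (median 171), a log2 change of 1.24 ± 0.20 (edgeR adjusted p = 1.3e-05). With Wnt it averaged 197 ± 111 CPM and without it 468 ± 327 CPM (log2 change -1.15 ± 0.20). The Wnt changes were -1.60 ± 0.14 in the mesendoderm wells (means 66.6 and 199 CPM), -1.71 ± 0.14 from the mesendoderm start (54.8 and 189 CPM) and -1.04 ± 0.18 from the undirected start (71.6 and 154 CPM). The RA changes in these settings were 0.43 ± 0.13, 0.35 ± 0.14 and 0.66 ± 0.17, and that from the mesendoderm start was not called with DESeq2 or with the median UMIs per cell as a covariate.

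Mest was highest with RA and Fgf together in cells that had started undirected. In the germ layer conditions Mest averaged 587 ± 351 CPM with RA and Fgf, 373 ± 269 CPM with RA alone, 162 ± 76.9 CPM with Fgf alone and 208 ± 103 CPM with neither, an interaction of 1.19 ± 0.20 (edgeR adjusted p = 0.0024). In the undirected wells of the mixed experiment the means were 206 ± 135, 73.6 ± 44.0, 90.0 ± 40.6 and 81.8 ± 36.0 CPM in the same order, an interaction of 1.55 ± 0.28 (adjusted p = 0.00030). Fitted with 1 pair in the model at a time, neither value was called (1.06 with adjusted p = 0.47, and 1.22 with adjusted p = 0.13). The Fgf change from the undirected start (0.81 ± 0.17) differed from that from the mesendoderm start by a called amount (-1.04 ± 0.22). Bmp changed the RA effect on Mest in the germ layer conditions by -1.26 ± 0.20: Mest averaged 350 CPM with RA and Bmp, 611 CPM with RA alone, 223 CPM with Bmp alone and 147 CPM with neither. In mesendoderm-started wells Mest averaged 50.8 CPM with Wnt and Bmp, 58.9 CPM with Wnt alone, 246 CPM with Bmp alone and 133 CPM with neither (interaction -1.13 ± 0.22). Bmp raised Mest in the mesendoderm wells (0.76 ± 0.13; means 164 and 101 CPM) and from the mesendoderm start (0.44 ± 0.14; not called with DESeq2, 0.31 and adjusted p = 0.21), and Tgfb lowered it from the mesendoderm start (-0.55 ± 0.14).

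Marker genes of cell types moved with Bmp beside these members, and their part in the results was not tested. The summed level of 5 markers of lateral and extraembryonic mesoderm ranged from 178 to 611 CPM in Bmp plus germ layer conditions (median 379), against 30.9 to 226 CPM in Bmp minus conditions (median 76.0). Most of this sum was 1 gene: over the 32 conditions Msx1 averaged 171 CPM. Hand1 averaged 48.4 CPM, Bmp4 12.5 CPM, Tbx20 4.63 CPM and Foxf1 1.55 CPM. The sum of 7 trophoblast markers ranged from 67.9 to 150 CPM with Bmp (median 111), against 28.7 to 72.3 CPM without (median 42.3), with 3 of the 7 under 1 CPM and 1 at 0 in both groups. The sum of 5 pluripotency markers had medians of 639 CPM with Bmp and 994 CPM without, 4 neural markers 7.02 and 33.2 CPM, and 5 primitive streak markers 57.8 and 118 CPM. Markers of visceral and parietal endoderm (70.2 and 64.8 CPM) and of fibroblasts (19.1 and 20.4 CPM) differed little in median. The mesoderm sum was also higher with Bmp in the mixed experiment, with medians of 177 and 53.2 CPM from the mesendoderm start and 78.3 and 25.5 CPM from the undirected start, while the trophoblast sum from the mesendoderm start was 59.4 CPM with Bmp and 60.3 CPM without. In summed populations, more cells of a type and more RNA of a gene per cell cannot be told apart.

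Several members differed between the starts. Among treated wells of the mixed experiment, 6 of 9 members were higher and 1 was lower in mesendoderm-started than in undirected wells (25.6% of genes changed, 14.2% were higher; medians 0.87 and 1.0e-04 on the log2 scale). These were Igf2, H19, Cdkn1c, Phlda2, Peg3 and, by 0.17 ± 0.07 and not called in 4 of the alternative settings, Grb10. Among control wells 3 were higher and 1 was lower (8.57% of genes changed). Peg3 averaged 278 ± 118 CPM in 64 mesendoderm-started and 127 ± 55.2 CPM in 62 undirected treated wells (log2 difference 1.04 ± 0.08). Its 8 mesendoderm controls ran from 194 to 328 CPM and its 8 undirected controls from 84.8 to 137 CPM, with no overlap (log2 difference 1.14 ± 0.19, edgeR adjusted p = 2.9e-06). Igf2 ran from 12.6 to 37.3 CPM in the mesendoderm controls and from 2.76 to 13.3 CPM in the undirected controls, with 1 mesendoderm-started well below the highest undirected one (log2 difference 1.69 ± 0.42), and Cdkn1c averaged 67.5 ± 34.5 and 31.4 ± 7.39 CPM there (1.11 ± 0.38; not called with DESeq2, adjusted p = 0.053).

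**Figure D4:**
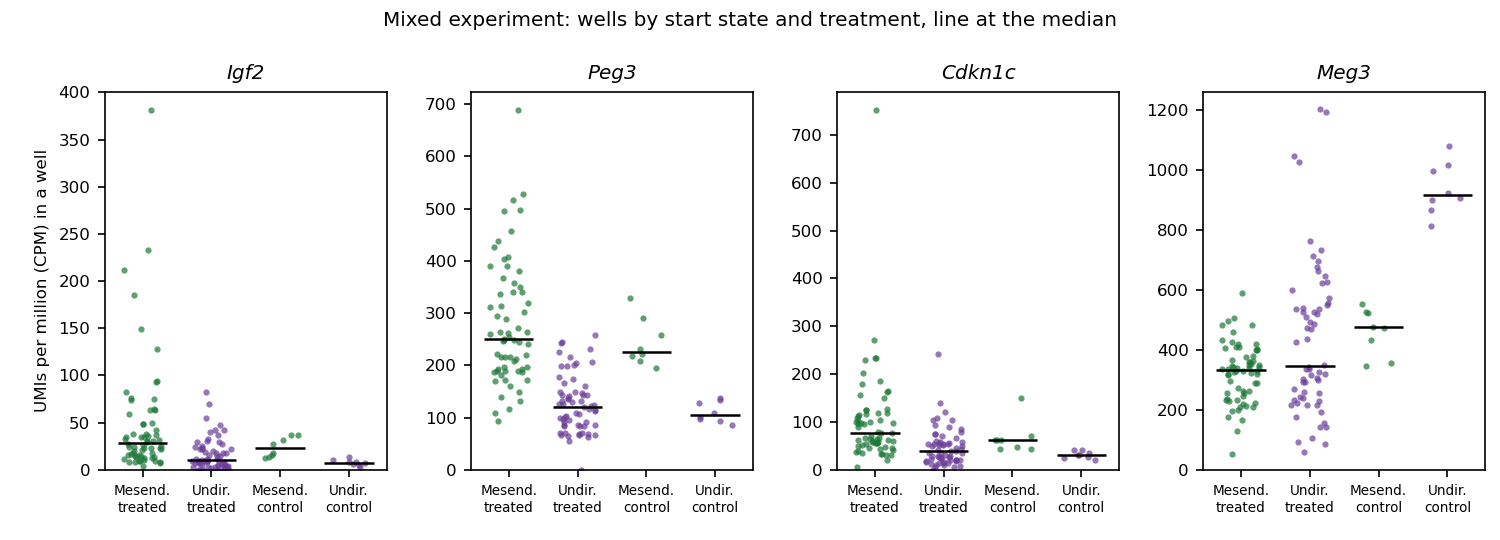
CPM of Igf2, Peg3, Cdkn1c and Meg3 in single wells of the mixed experiment (points, vertical axis from 0) by start and treatment, with a line at the median. The 8 mesendoderm controls lie above the 8 undirected controls for Peg3 (194 to 328 against 84.8 to 137 CPM) and below them for Meg3 (347 to 552 against 813 to 1082 CPM).

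Meg3 ran the other way. Its control wells held 347 to 552 CPM after mesendoderm induction and 813 to 1082 CPM without it, with no overlap (log2 difference -1.02 ± 0.16, edgeR adjusted p = 6.6e-07). Treatment lowered Meg3 in undirected cells to 435 ± 259 CPM in 62 treated wells, against 938 ± 88.0 CPM in the 8 controls (log2 change -1.31 ± 0.12), the 1 member called there (19.3% of genes changed). After mesendoderm induction treatment changed 3 members (15.5% of genes): Meg3 was lower (324 ± 98.5 CPM treated, 461 ± 76.9 CPM control; -0.52 ± 0.12), Grb10 was higher (83.0 and 63.2 CPM; 0.36 ± 0.11) and Mest was lower (-0.49 ± 0.18, not called with DESeq2). Markers moved with the start as well: the lateral and extraembryonic mesoderm sum had medians of 75.7 CPM in mesendoderm and 18.8 CPM in undirected controls, the primitive streak sum 97.4 and 33.7 CPM, the trophoblast sum 80.9 and 38.7 CPM, and the pluripotency sum 3000 and 2295 CPM, and their part in these differences was not tested.

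The effects of the signals themselves differed between the starts for 3 members with RA (5.68% of genes), 2 with Wnt (7.77%) and 1 with Fgf (1.47%). For Tgfb (0% of genes) and Bmp (0.193%) edgeR called no member, DESeq2 called none either, and at an unadjusted p under 0.05 the counts were 0 and 2. The interval of the Bmp difference for Igf2 was wide (0.58 ± 0.30 on the log2 scale, mesendoderm minus undirected start).

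Single cells of the germ layer experiment showed which members were in few cells. H19 was detected in 340 of 4350 cells, which held 1501 UMIs with up to 50 in 1 cell, and in the mixed experiment in 433 of 4869 cells with up to 125 UMIs in 1 cell. Igf2 was detected in 953 of 4350 germ layer cells with up to 47 UMIs in 1 cell, while Meg3 was detected in 3860 cells. To compare shares at equal depth, cells were thinned to 5000 UMIs, which left out 81 shallower cells of the Bmp plus and 84 of the Bmp minus conditions. Igf2 was then detected in 16.0% of Bmp plus cells (95% exact binomial interval 14.5 to 17.7) and 3.95% of Bmp minus cells (3.15 to 4.88). H19 was detected in 6.65% (5.62 to 7.79) and 1.97% (1.42 to 2.67), and Phlda2 in 62.4% and 32.7%. Unthinned, the Igf2 shares were 33.6% and 10.1%, at median depths of 15779.5 and 14889 UMIs per cell. These intervals cover counting error within these cells only. No annotated cell type that lacks the genes is in the tables used here, so the share that free RNA gives was not measured.

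At equal depth, Igf2 was detected in a larger share of H19-positive than of H19-negative cells. The shares with Igf2 were 18.8% of 181 H19-positive and 9.64% of the H19-negative germ layer cells, 27.95% and 15.8% in the mesendoderm experiment and 22.5% and 10.3% in the mixed experiment. Cdkn1c and Phlda2 gave 61.6% and 42.3% in the germ layer cells (Phlda2 in Cdkn1c-positive and Cdkn1c-negative cells). Cells of all conditions were pooled for these shares, so conditions in which both genes are high add to them.

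Over the 32 germ layer conditions, the genes whose levels on the log2(CPM + 5) scale ran most like those of a member were found among 7822 genes, given as Pearson's r with no test, since the conditions share signals and library. Igf2 ran most like Esx1 (r = 0.90), an X-linked homeobox gene of the placenta, and over the 300 mesendoderm wells most like Hand1 (0.58), a mesoderm and trophoblast transcription factor. Phlda2 ran most like Peg10 (0.89), another imprinted gene needed for the placenta, Grb10 most like Ctdsp2 (0.89), Mest most like Greb1l (0.86) and Igf2r most like App (0.86). Meg3 ran most like Malat1 (0.83), a nuclear noncoding RNA, and Mirg, the microRNA host gene of the same domain, was among the closest 3 (0.755). H19 ran most like Fmr1 (0.83), Peg3 like Serf1 (0.77) and Cdkn1c like Car13 (0.72), with Phlda2 among its closest 3 (0.67). In the mixed experiment Krt18, a simple epithelium keratin, was first for Igf2 (0.77) and Peg3 (0.72) over 142 wells.

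Other imprinted genes were listed by the parental copy that is mainly expressed. Of 19 paternally expressed genes tested in the germ layer experiment, 8 rose and 3 fell with Bmp, where 43.1% of all genes changed and 21.6% were higher, with a median log2 change of 0.14 against 0.0037 over all genes; Peg10 rose by 1.51 ± 0.08 and Slc38a4, an amino acid transporter, by 0.99 ± 0.08, while Peg12 fell by 1.35 ± 0.21. Of 11 maternally expressed genes, 2 rose and 2 fell, a share under that of all genes (Cd81 -0.31 ± 0.05, Commd1 -0.18 ± 0.04, Ube3a 0.15 ± 0.05). With RA, Mirg fell by 0.75 ± 0.14 beside Meg3, Dcn rose by 1.84 ± 0.36 and Ascl2, a trophoblast transcription factor, fell by 1.36 ± 0.29. In mesendoderm-started against undirected treated wells, 7 of 14 genes listed as paternally expressed were higher and 1 was lower (median 0.15). Of all genes 25.6% changed there and 14.2% were higher. The listed genes were led by Dlk1 (1.60 ± 0.16), the paternally expressed neighbour of Meg3, then Peg10 (0.68 ± 0.07) and Gnas (0.31 ± 0.05). Counts of Gnas were taken over the whole gene and do not separate its transcripts by parental copy.

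In the insulin-like growth factor pathway, 4 of 11 genes tested rose with Bmp in the germ layer experiment and none fell (median 0.11), near the share of all genes called (43.1%, with 21.6% higher), so the count is not read as a result: the receptor Igf1r by 0.37 ± 0.09, the RNA-binding Igf2bp1 by 0.10 ± 0.03 and the binding protein Igfbp5 by 0.91 ± 0.31 were those with the smallest adjusted p. Igfbp3, which sequesters the growth factors, was lower with RA (-1.78 ± 0.18) and higher with Tgfb (1.40 ± 0.18). In the mesendoderm wells 2 of 5 fell with Bmp (29.3% of all genes changed), Igfbp4 by 0.56 ± 0.10 and Igfbp3 by 0.52 ± 0.14. Of 7 genes that maintain imprints, none rose and 3 fell with Bmp in the germ layer experiment (median -0.24), likewise near 43.1%: the corepressor Trim28 by 0.31 ± 0.04, the zinc finger protein Zfp57 by 0.87 ± 0.16 and Dppa3, also a marker of naive pluripotency, by 1.16 ± 0.32.

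In the bulk libraries, 24 h after barcodelet transfection no member was called against untransfected cells, nor was any at 72 h, nor between 72 h and 24 h. This held with edgeR and with DESeq2, and no member had an unadjusted p under 0.05; 0.0344%, 0.0258% and 0% of 11631 genes were called. With 2 libraries a group, only large changes could be seen: the Meg3 change at 24 h was 0.31 ± 0.21 on the log2 scale. Rian had 43.2 and 38.9 CPM at 24 h and 40.6 and 42.1 CPM at 72 h, against 40.4 and 33.4 CPM in untransfected cells. H19 had 58.0 and 65.5 CPM at 24 h and 72.5 and 54.4 CPM at 72 h, against 56.1 and 39.8 CPM in untransfected cells. Igf2 had 2 to 4 reads in each of these libraries and did not pass the filter on low counts.

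Among the sorted cells, Foxa2 checked the sort: it had 195, 302 and 312 CPM in Foxa2GFPplus libraries, against 29.8 and 3.83 CPM in those labelled Tdgf1GFPplus, and 10.7 and 7.64 CPM in Foxa2GFPminus libraries. Tdgf1 did not follow its label, with 72.5, 66.9 and 84.3 CPM in Foxa2GFPplus libraries, 47.3 and 64.9 CPM in those labelled Tdgf1GFPplus, and 104 and 143 CPM in Foxa2GFPminus libraries. The pluripotency sum was 105 to 113 CPM in Foxa2GFPplus libraries, 787 and 880 CPM in those labelled Tdgf1GFPplus, and 421 and 512 CPM in Foxa2GFPminus libraries, and its part in the differences below was not tested. A single transcript, Gm42418, took 15.7% to 42.6% of the reads in sorted libraries.

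Against the libraries labelled Tdgf1GFPplus, 3 of 10 members were higher in Foxa2GFPplus cells (10.2% of 13654 genes were called). Meg3 had 1103, 1187 and 939 CPM in Foxa2GFPplus libraries, against 414 and 323 CPM in the libraries labelled Tdgf1GFPplus (log2 change 1.55 ± 0.30, edgeR adjusted p = 0.011). The groups did not overlap, and the 2 Foxa2GFPminus libraries (460 and 452 CPM) lay near the lower group. Grb10 had 93.2, 258 and 243 CPM in Foxa2GFPplus libraries, against 54.1 and 46.5 CPM in the libraries labelled Tdgf1GFPplus (1.98 ± 0.42, edgeR adjusted p = 0.015), with replicate 1 far below the other 2. Cdkn1c had 409, 167 and 160 CPM, against 64.5 and 98.7 CPM (1.59 ± 0.44, edgeR adjusted p = 0.041), with replicate 1 far above the other 2. All 3 calls were lost without either library labelled Tdgf1GFPplus, with fitted changes of 1.32 to 2.10 without replicate 1 (edgeR adjusted p = 0.080 to 0.29) and 1.38 to 1.93 without replicate 2 (0.13 to 0.15); the 1 library left there is then assumed to vary like those of the other groups. Without Foxa2GFPplus replicate 1 the count was 7 of 10, and DESeq2 on all libraries called 4. The share of all genes called in those fits is not given here, so these counts are not read as results about the members.

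**Figure D5:**
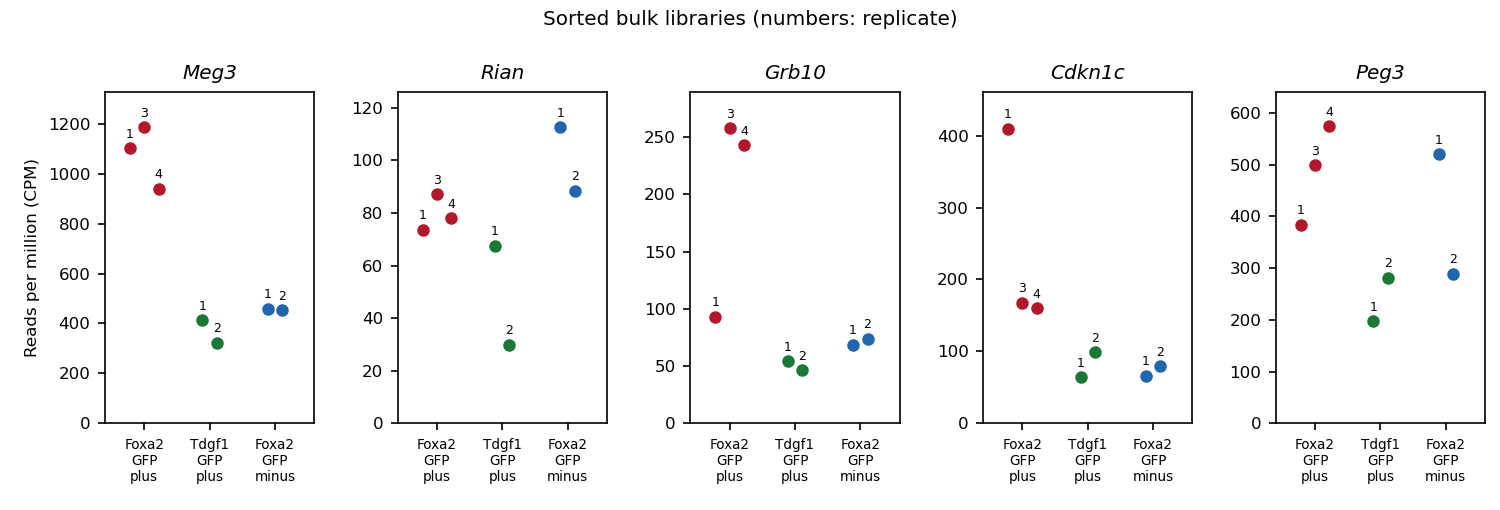
CPM of Meg3, Rian, Grb10, Cdkn1c and Peg3 in each sorted bulk library (points, numbered by replicate; vertical axes from 0). Meg3 is higher in all 3 Foxa2GFPplus libraries (939 to 1187 CPM) than in the other 4 (323 to 460 CPM).

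Rian, which lies downstream of Meg3 in the same domain, had 73.7, 87.2 and 78.1 CPM in Foxa2GFPplus libraries, against 67.6 and 29.9 CPM in those labelled Tdgf1GFPplus, and 113 and 88.4 CPM in Foxa2GFPminus libraries. Its changes were 0.71 ± 0.35 and -0.34 ± 0.34 on the log2 scale and were not called. The second direction depended on the scaling: per total reads Rian had 73.0, 122 and 106 CPM in Foxa2GFPplus libraries, against 101 and 70.0 CPM in Foxa2GFPminus libraries. Foxa2GFPplus against Foxa2GFPminus libraries gave no called member with edgeR (2.39% of genes were called), where 3 had an unadjusted p under 0.05. DESeq2 called 3, and without Foxa2GFPplus replicate 1 edgeR called 4, with no share of all genes given here for either. Meg3 differed by 1.24 ± 0.30 (adjusted p = 0.054), Cdkn1c by 1.75 ± 0.44 (0.062) and Grb10 by 1.48 ± 0.41 (0.083), each higher in 3 of 3 Foxa2GFPplus libraries than in both others. Libraries labelled Tdgf1GFPplus against Foxa2GFPminus libraries gave no called member with edgeR or DESeq2 (0% of genes, 1 member at an unadjusted p under 0.05). In simulated counts of Foxa2GFPplus against Foxa2GFPminus libraries, 36.6% of genes changed by 2 on the log2 scale were called. Of those changed by 1, 1.01% were. A missing call among the sorted libraries is therefore not read as no change. Igf2 (0 to 63 reads) was low in the sorted cells, which limits what could be seen of it. Phlda2 had 25.6 to 39.3 CPM in Foxa2GFPplus libraries and 107 to 717 reads over the sorted libraries, and H19 had 35 to 374 reads.

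Of the listed pathway genes, 6 of 12 insulin-like growth factor genes were higher in Foxa2GFPplus cells than in the libraries labelled Tdgf1GFPplus and none was lower (10.2% of all genes were called; median 1.76 against 0.079 over all genes): Igf2bp3 by 1.91 ± 0.32, Igfbp5 by 3.69 ± 0.66 and Igf1r by 1.62 ± 0.32 on the log2 scale had the smallest adjusted p. Of the maternally expressed genes 3 of 12 were higher, Asb4 (2.72 ± 0.51), Mirg (1.51 ± 0.31) and Copg2 (1.44 ± 0.37). Of the imprint maintenance genes 2 of 7 were lower, Dppa3 (-3.84 ± 0.57) and Zfp57 (-2.03 ± 0.40). Against Foxa2GFPminus libraries, where 2.39% of all genes were called, 2, 1 and 0 genes of these 3 lists were higher and 0, 0 and 2 were lower. Values with 1 library left out were taken for the members only, whose calls here depended on both libraries labelled Tdgf1GFPplus.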

How the data were processed

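Per the labels, single cells of 3 pooled experiments were sequenced in droplets and bulk libraries were made with a 3′ end kit; the deposited bulk table held 13 of them. HTSeq 0.9.1, STAR 2.5.2b, Cell Ranger 1.3.1 and the mm10 build are named, without roles, per the submitters' processing notes. The authors deposited UMI counts per gene and cell, a table assigning cells to conditions with a pass mark, and read counts per gene for the bulk libraries; no source used here says how cells were assigned or whether doublets were removed, and no doublet caller was run. Cells marked as passing were summed per condition or well, and populations under 5 cells were left out.

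Counts were tested with edgeR 4.0.16 in R 4.3.3 (trimmed mean scaling, filterByExpr, quasi-likelihood test, 2-sided, Benjamini-Hochberg adjustment over all genes, threshold 0.05), with every signal as a term coded 0.5 for plus and -0.5 for minus, products for pairs, and effects nested in the start in the mixed experiment. A standard error is the absolute log2 change over the square root of F. Low-count members that failed the filter were Igf2r in the mesendoderm wells and Igf2 in the transfection libraries. The alternatives were DESeq2 1.42.0, its size factors in edgeR, no filter, a minimum of 10 cells per well, the median UMIs per cell as a covariate, all pairs in the germ layer model, 1 pair at a time, each bulk library left out, a replicate block and all bulk libraries in one fit. Adding the well set as a covariate and a crossed block were chosen after seeing the data. The scripts were tested on simulated data. Levels in Pearson's r are log2(CPM + 5).

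The members and the gene and marker lists (other imprinted genes by parental copy, insulin-like growth factor pathway, imprint maintenance, and cell type markers) were chosen with earlier results of these data known. Of a list, up to 3 called genes with the smallest adjusted p are named, and the first of the opposite direction; the 3 genes most like each member by r were ranked over populations.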

Additional observations from a re-analysis of the deposited data

Results flagged for a closer look

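The effect of a signal differed between the 2 starts of the mixed experiment, by the test of the difference itself, for 6 combinations of a member and a signal. The values are mesendoderm minus undirected start on the log2 scale. With RA they were -1.5 for Igf2, -0.612 for Peg3 and 0.516 for Meg3. With Wnt they were 0.813 for Phlda2 and 0.868 for Meg3, and with Fgf the value was -1.04 for Mest.

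Among the 8 control wells of a start, 1 well lay far from the others for 5 combinations of a member and a start. In mesendoderm controls the highest well held 149.0 CPM of Cdkn1c, 360.0 CPM of Phlda2 and 266.0 CPM of Mest. In undirected controls it held 19.9 CPM of H19 and 184.0 CPM of Mest. The rule was applied to 18 groups of wells, and chance flags about 1 in 20 such groups. That rate was not measured on these wells, so the number of flags is not read as more than chance.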

How the results depend on the processing

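Of 721 values that recomputed 136 called member values under another setting, 670 stayed called in the same direction, 51 were no longer called and none reversed. Of 244 recomputed counts of called members, 211 were within 1.5 times the reported count. In the germ layer experiment the Fgf count (1) was 0 with no filter, 0 with DESeq2 and 3 with all pairs in the model, and the Tgfb count (3) was 5 with all pairs. In the mixed experiment with no filter, the counts from the mesendoderm start were 7 for Tgfb, 4 for Fgf and 7 for treated against control, and from the undirected start 6, 3 and 4; the differences between starts then numbered 7 for RA, 6 for Wnt, 3 for Bmp and 5 for Fgf, and the control wells of the 2 starts differed in 7 members. With DESeq2 the count was 2 for treated against control from the undirected start and 5 for the RA difference between starts. With at least 10 cells per well the Fgf count from the undirected start was 2, and with the well set as a covariate the Fgf difference between starts numbered 2. Pair interactions numbered 3 (germ layer) and 4 (mixed) with 1 pair at a time, and 32 (mesendoderm) and 47 (mixed) with no filter. Shares of all genes called under these settings are not given here, so the counts describe the settings and are not read as results about the members. The cause of these shifts was not tested.

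For Foxa2GFPplus against Foxa2GFPminus libraries the count was 4 with no filter, 3 with DESeq2, 3 with all bulk libraries in one fit and 0 to 4 with 1 library left out. Against the libraries labelled Tdgf1GFPplus it was 5 with no filter, 5 in one fit and 0 to 7 with 1 library left out. Leaving out 1 library gave 0 for every transfection comparison and for the libraries labelled Tdgf1GFPplus against Foxa2GFPminus libraries. Same-numbered bulk libraries did not deviate together throughout (r = 0.11 between 24 h and 72 h libraries, with the other pairs of transfection groups below 0), so the numbers were not taken to pair samples. The replicate block called 0 members in the transfection comparisons and between the libraries labelled Tdgf1GFPplus and Foxa2GFPminus; in the transfection comparisons so did a block with the untransfected numbers crossed, which was added after seeing the data. For the bulk alternatives, too, the shares of all genes called are not given here. Depth limits Igf2r, H19 and Igf2, which had few UMIs per mesendoderm well.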
